A study of Rattus norvegicus with 8 samples.

Results

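Neurons pass signals at synapses by releasing transmitter from vesicles, and 43 genes of this presynaptic release machinery were described here, chosen by symbol from the SNARE, active zone, vesicle, glutamate transporter and recycling families. All 43 had a row in the count table of 16871 genes, and all 43 were among the 11372 genes tested. By role they comprise 6 calcium sensors, 8 SNARE proteins and SNARE regulators, 13 active zone genes, 10 vesicle proteins, 2 vesicular glutamate transporters and 4 vesicle recycling genes. As background, a vesicle filled with glutamate docks at the active zone, a protein scaffold at the release site, where Unc13 proteins ready the SNARE complex of Snap25, Stx1a and Vamp2. Calcium that enters with an action potential binds synaptotagmins, the SNAREs pull the membranes together, and the vesicle membrane is taken back by endocytosis. Release strength is known to be adjusted when a network is silenced for hours to days.

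The cells were co-cultures of cortical and hippocampal neurons from Sprague Dawley rat pups (P1-P2), titled as hippocampal cultures by the submitters, and glial cells were present by their markers. Each culture received vehicle (water, H) or 1 µM tetrodotoxin (TTX, T), a sodium channel blocker that stops action potentials, for 24 h, starting on day 14 in vitro. After 48 h of washout, on day 17, came a second dose of vehicle or TTX for 4 h, with bromouridine at 2 mM for the last 0.5 h so that newly made RNA could be captured and sequenced (BrU-seq). The groups are HH (vehicle at both times), HT (TTX only at the second), TH (TTX only at the first) and TT (TTX at both), with 2 libraries each. All groups shared the medium changes, the washes and the bromouridine label. The design asks how transcription responds to silence and whether an earlier silence alters that response.

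Total counts ran from 3489176 to 4959887 per library. Levels are given as CPM, counts scaled to each library's total over the genes tested times its normalization factor from edgeR (TMM). The factor was 0.901 in HH replicate 1 and 0.995 to 1.040 in the others. A factor below 1 raises every level of its library, summed marker levels included. Over all genes tested, levels summed to 1109770 CPM in HH replicate 1 and to 961923 to 1004740 in the others. CPM are not per gene length, so that no gene's level is set against another's. The lowest member count in any library was 5, and 39 of the 43 genes had at least 50 counts in every library. HH replicate 1 stood apart from the other libraries: 12 of 12 listed genes that firing switches on within minutes, among them Fos, Npas4 and Arc, were highest there. Microglial markers were low: Aif1 and P2ry12 stood at 0 in several libraries and at most at 0.598 CPM, whereas Cx3cr1 stood at 4.77 to 8.72 CPM and C1qa at 0.517 to 4.21. In RNA from mixed cultures, fewer cells of a type and less RNA per cell cannot be told apart.

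The promoters shown are those of genes picked by their p or by a motif in the sequence. Synpr had the smallest p of the 43 genes for the second TTX, Unc13a had it for TTX history, and Syn1, Vamp1 and Sh3gl2 are the members whose promoters hold the cAMP response element (CRE), the letters through which activity-regulated CREB acts. Sequences are from RefSeq on build GRCr8, 5′ to 3′ on the gene's strand, from 250 bases before the start of transcription to 30 from it. Capitals mark the CRE (TGACGTCA) or, in Unc13a, the left part of the RE1 element bound by the neuronal gene repressor REST (TTCAGCACC), here on the opposite strand.
Synpr: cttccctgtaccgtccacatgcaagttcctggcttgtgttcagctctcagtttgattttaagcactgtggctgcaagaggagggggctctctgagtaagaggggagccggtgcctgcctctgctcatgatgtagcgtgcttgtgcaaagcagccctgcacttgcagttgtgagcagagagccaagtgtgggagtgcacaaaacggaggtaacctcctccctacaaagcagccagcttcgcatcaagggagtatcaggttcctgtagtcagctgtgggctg
Unc13a: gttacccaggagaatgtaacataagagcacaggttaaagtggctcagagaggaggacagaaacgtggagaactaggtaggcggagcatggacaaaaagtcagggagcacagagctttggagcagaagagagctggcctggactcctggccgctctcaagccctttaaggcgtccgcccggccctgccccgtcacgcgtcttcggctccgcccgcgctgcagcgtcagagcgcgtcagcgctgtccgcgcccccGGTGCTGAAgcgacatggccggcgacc
Syn1: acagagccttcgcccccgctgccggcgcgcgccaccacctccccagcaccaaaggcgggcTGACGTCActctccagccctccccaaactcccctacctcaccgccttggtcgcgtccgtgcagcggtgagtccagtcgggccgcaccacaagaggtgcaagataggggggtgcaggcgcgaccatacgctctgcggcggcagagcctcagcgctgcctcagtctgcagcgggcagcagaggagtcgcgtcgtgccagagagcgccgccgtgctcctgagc
Vamp1: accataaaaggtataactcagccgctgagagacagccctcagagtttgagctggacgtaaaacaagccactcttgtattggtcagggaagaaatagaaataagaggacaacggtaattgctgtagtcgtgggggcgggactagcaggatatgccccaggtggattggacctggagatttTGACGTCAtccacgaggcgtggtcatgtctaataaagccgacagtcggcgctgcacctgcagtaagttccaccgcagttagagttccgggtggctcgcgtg
Sh3gl2: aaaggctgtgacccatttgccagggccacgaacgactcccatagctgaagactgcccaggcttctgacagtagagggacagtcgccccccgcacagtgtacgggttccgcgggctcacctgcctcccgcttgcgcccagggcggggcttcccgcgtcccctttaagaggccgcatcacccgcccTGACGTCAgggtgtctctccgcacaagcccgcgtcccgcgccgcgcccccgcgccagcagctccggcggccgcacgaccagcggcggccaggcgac
They lie at chr15:14182328-14182607 (minus strand) for Synpr, chr16:18415757-18416036 (minus) for Unc13a, chrX:3725495-3725774 (plus) for Syn1, chr4:159698644-159698923 (plus) for Vamp1 and chr5:104699020-104699299 (plus) for Sh3gl2. In windows of 300 bases, reaching 50 from the start, 35 of the 43 genes had a sequence. The CRE letters were in 3 of these 35 promoters (8.6%), against 2.0% of 27457 rat promoters, and the RE1 left part in 1 (2.9%), against 0.4%. The AP-1 site TGACTCA was in 1, Erc2 (2.9%), against 5.0%. The GC box GGGCGG was in 25 (71.4%), against 36.0%. The median GC content of these windows was 66.7% against 52.3%, and none of the motif shares, the CRE's included, was adjusted for it. Both strands were searched for exact letters, and a match is a description of the sequence, not a bound site. The 3 genes with a CRE stood near 0 for the second TTX, with log2 changes averaged over history of -0.05 ± 0.09 (SE) for Syn1, 0.06 ± 0.15 for Vamp1 and -0.07 ± 0.11 for Sh3gl2.

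On the median the release genes stood lower with either TTX exposure and no single one passed the test. For the second TTX averaged over history, 36 of 43 log2 changes lay below 0, with a median of -0.14, against 50.3% of all genes tested and a median of 0.00. For TTX history averaged over the second treatment, 39 of 43 lay below 0, with a median of -0.12, against 50.0% and 0.00. With edgeR's quasi-likelihood test and Benjamini-Hochberg adjustment, 0 of 43 genes passed 0.05 in any of the 7 comparisons, as did 0% of all genes tested in each, and DESeq2 and limma-voom called 0 of the 43 as well. At an unadjusted p under 0.05, 6 genes were lower and 0 higher for the second TTX, Syt4, Synpr, Sv2c, Unc13c, Slc17a6 and Amph. The background over all genes tested was 2.59% lower and 4.35% higher. For history 3 genes were lower, Unc13a, Syt4 and Sv2b, and 0 higher, against 2.74% lower and 3.01% higher.

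**Figure D1:**
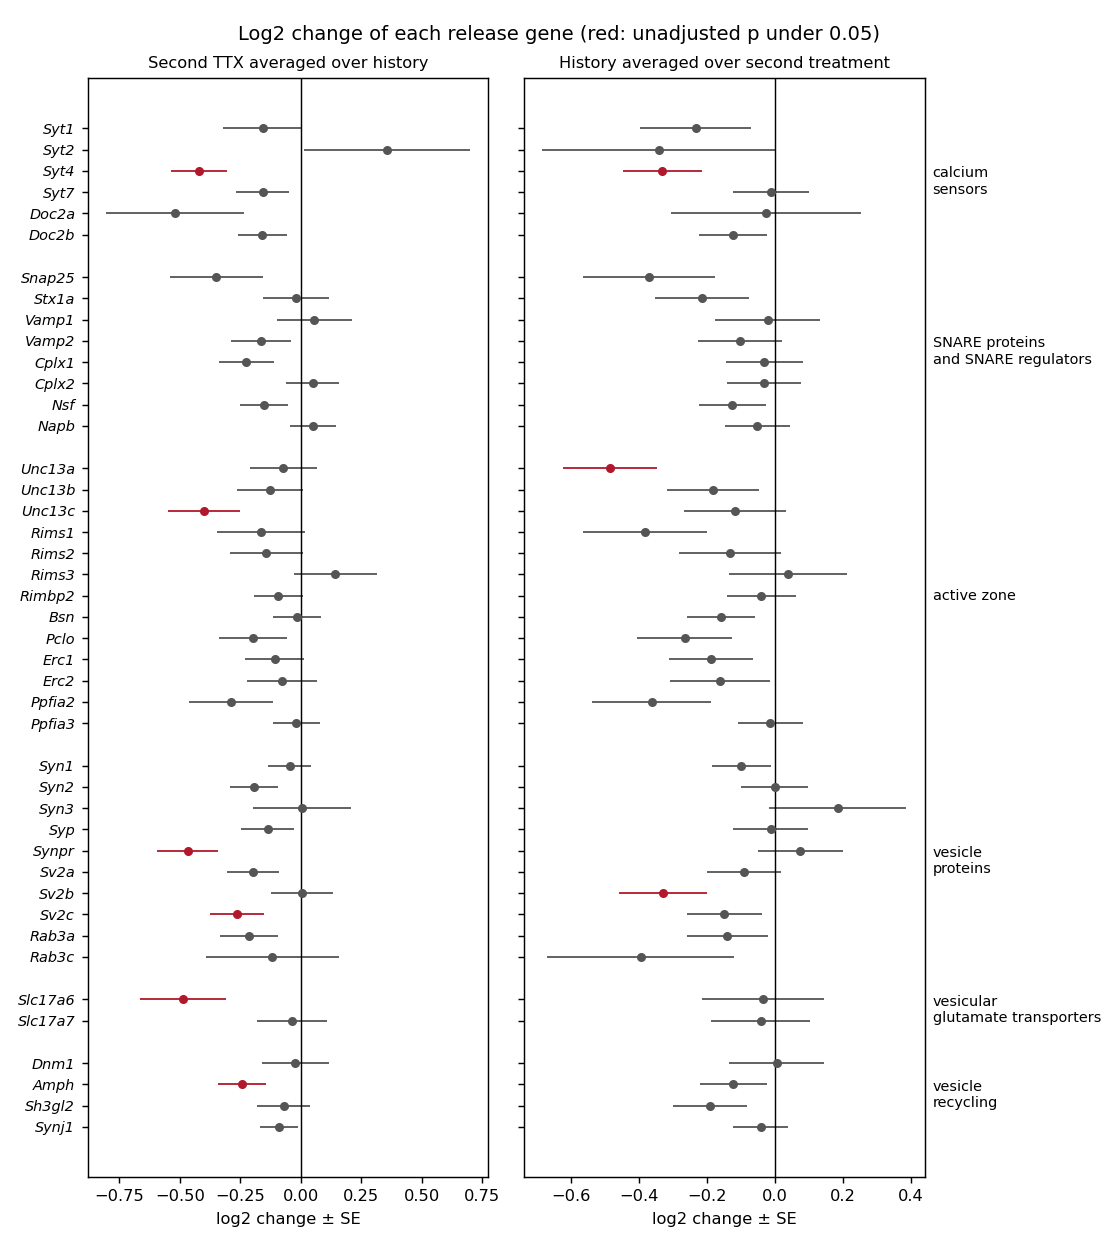
Log2 change ± SE of each of the 43 release genes for the second TTX averaged over history (left) and for TTX history averaged over the second treatment (right), by class, with red points at an unadjusted p under 0.05. Points lie left of 0 for 36 genes in the left panel and for 39 in the right, and no gene passed the adjusted threshold.

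Within single comparisons the counts were as small. In HT against HH, 32 of 43 genes lay below 0 (median -0.19), and Syt4, Synpr, Sv2c and Amph had an unadjusted p under 0.05, all lower, against a background of 2.73% lower and 3.75% higher. In TT against TH, 31 lay below 0 (median -0.08), and Doc2a, Doc2b, Unc13c and Slc17a6 were lower at that p, against 0.923% lower and 1.71% higher. The earlier TTX alone, TH against HH, left 30 below 0 (median -0.13) and 3 lower at that p, Syt4, Unc13a and Ppfia2, against 2.02% and 2.06%. TT against HT had 36 below 0 (median -0.10) and 1 lower at that p, Doc2b, against 1.06% and 1.28%. In the interaction, the change of the TTX response with history, 18 lay below 0 (median 0.04) and 0 reached that p, against 0.906% lower and 0.73% higher.

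HT against HH and TT against TH share no library, and 23 of the 43 genes (53.5%) lay below 0 in both, against 28.3% of all genes tested. Above 0 in both were 3 genes (6.98%), against 29.4%. For history, TH against HH and TT against HT share none either, and 24 genes (55.8%) lay below 0 in both, against 28.8%. Most of the 43 lay below 0 in each comparison alone, 32 and 31 for the second TTX and 30 and 36 for history. Joint counts of this size can therefore arise without agreement gene by gene, which was not tested.

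**Figure D2:**
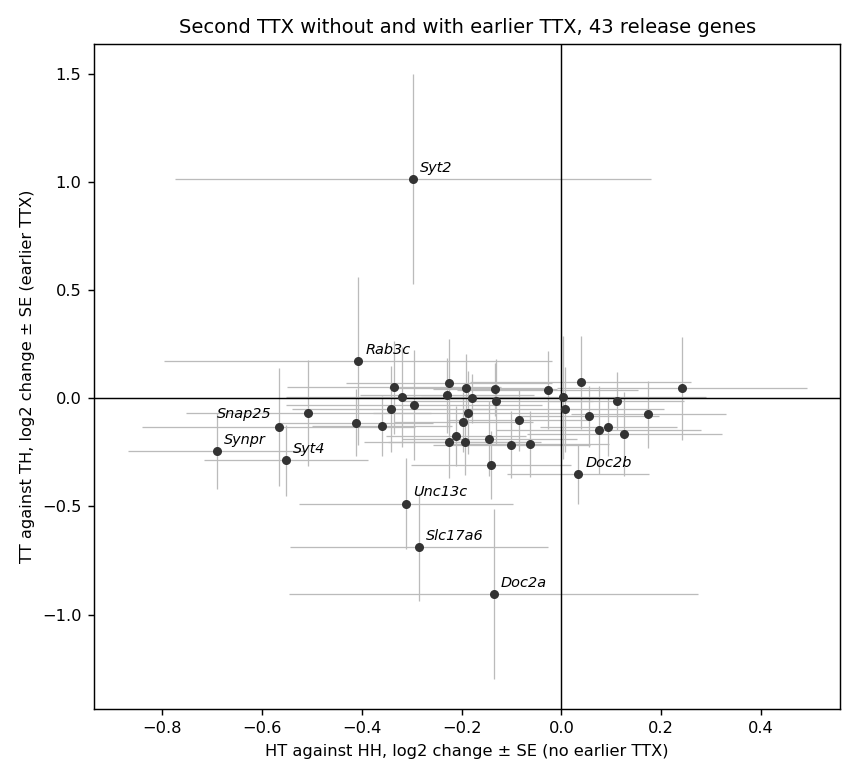
Log2 change ± SE of the 43 release genes for the second TTX in cultures without (HT against HH, horizontal) and with earlier TTX (TT against TH, vertical), with genes far from 0 named. The lower left part holds 23 genes and the upper right 3, and most error bars cross 0 on at least 1 axis.

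These counts moved with single libraries. For the counts at an unadjusted p with a library left out, the share over all genes tested is not given. They show only how far the counts moved, not a result about the release genes. HH replicate 1 was the highest library for 19 of the 43 genes and TT replicate 2 the lowest for 21. Over all 11372 genes tested, HH replicate 1 was the highest for 2456 and the lowest for 2532, and TT replicate 2 the lowest for 1245. Within HH, the level in replicate 1 over that in replicate 2 ran from 0.591 for Doc2a to 2.22 for Rab3c, and exceeded 1.5 for 7 genes. Without HH replicate 1, the genes below 0 went from 36 to 29 for the second TTX, and the median in HT against HH moved from -0.19 to -0.09. Again 6 genes then had an unadjusted p under 0.05 for the second TTX, of which Syt4, Synpr and Unc13c were among the 6 with all libraries and Syt7, Doc2a and Rab3a were not. In TH against HH the count at that p went from 3 to 0 and for history from 3 to 1. Without TT replicate 2, the genes below 0 in TT against TH went from 31 to 23 (median -0.01), and the 6 genes at that p for the second TTX became 2. Without HT replicate 1, the genes below 0 in TT against HT went from 36 to 24 (median -0.01), and without TH replicate 1 the median in TH against HH was -0.21. Leaving out HH replicate 1 and HT replicate 1 together left 36 below 0 for the second TTX (median -0.10). In HT against HH it left 38 (median -0.13), and for history 32 (median -0.05). Without HH replicate 2, where the lone HH library is assumed to vary like the other groups, the genes lower at that p numbered 13 for the second TTX and 14 for history. In that fit Snap25 passed in TH against HH and Unc13a passed for history (log2 change -0.62, edgeR adjusted p = 0.0346), among 121 and 100 genes past the threshold.

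**Figure D3:**
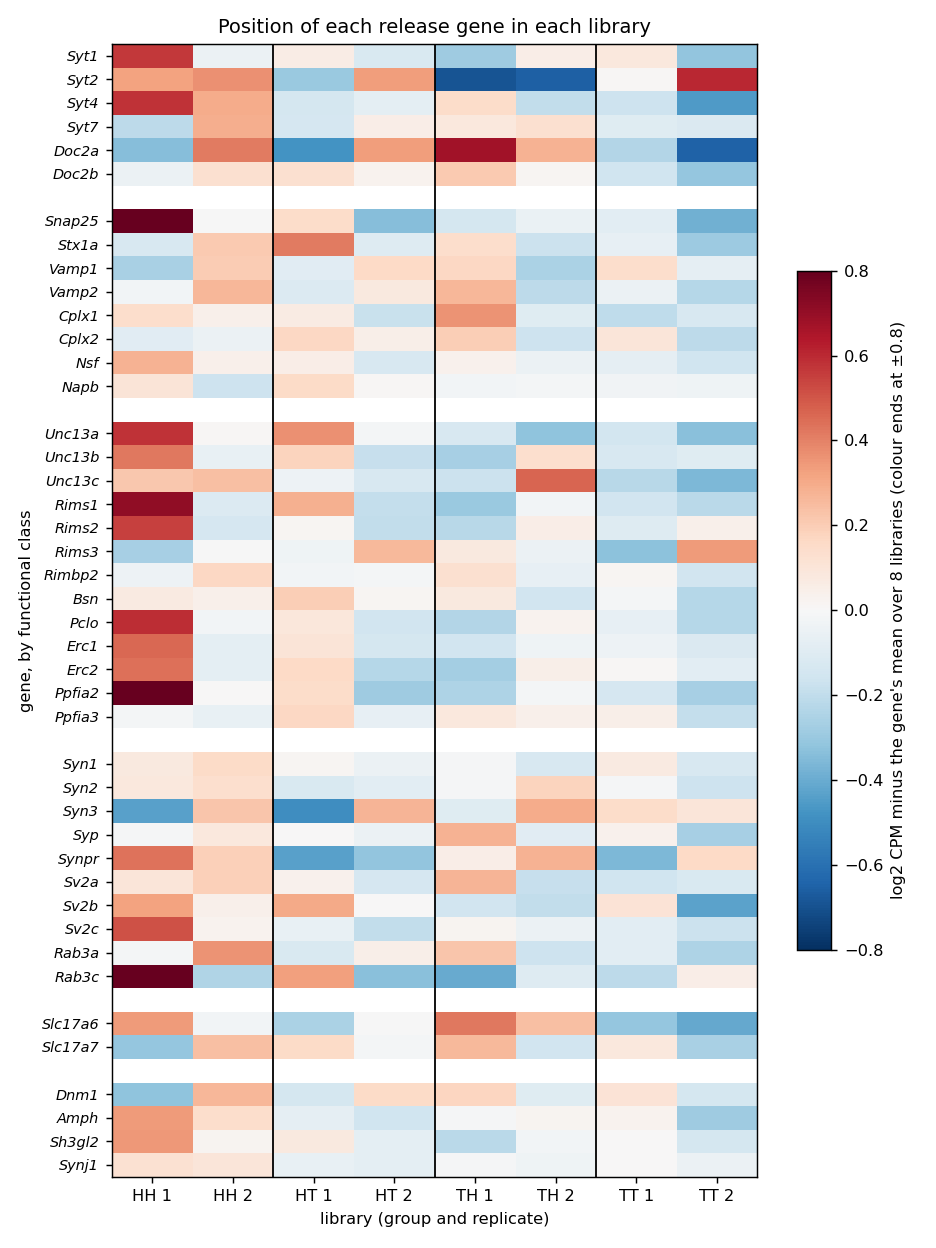
Level of each release gene (rows, by class) in each of the 8 libraries (columns), as log2 CPM minus the gene's mean over the libraries, red above and blue below. HH replicate 1 holds the strongest reds, among them Snap25, Ppfia2 and Rab3c, and TT replicate 2 is blue for most rows.

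Markers of other cells moved with the same groups. Of 10 listed oligodendrocyte lineage genes 9 were tested, and their summed level was 495 to 587 CPM in HH, 693 to 757 in HT, 622 to 669 in TH and 702 to 840 in TT. For the second TTX, 8 of the 9 were higher at an unadjusted p under 0.05 (median log2 change 0.39), and for history 3 (median 0.31). Over all genes tested, 4.35% were higher at that p for the second TTX and 3.01% for history. The myelin gene Mog stood at 0.261 to 1.03 CPM, too low to test. Of 7 dividing cell genes, 6 were higher at that p for the second TTX (median 0.72) and 0 for history (median 0.05), and their sum was 112 to 114 CPM in HH, 158 to 199 in HT, 113 to 131 in TH and 173 to 178 in TT. Of 7 astrocyte genes, 3 were higher at that p for the second TTX (median 0.17) and 3 for history (median 0.23), with a sum of 1170 to 1323 CPM in HH, 1420 to 1553 in HT, 1206 to 1367 in TH and 1511 to 1543 in TT. None of these marker genes passed edgeR's adjusted threshold.

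Neuronal markers lay below 0 more often than above, in lists of 7 or 8 genes. Over all genes tested, 50.3% lay below 0 for the second TTX and 50.0% for history. At an unadjusted p under 0.05, 2.59% of all genes tested were lower for the second TTX and 2.74% for history. For the second TTX, 6 of 8 pan-neuronal genes lay below 0 (median -0.09) with 0 at an unadjusted p under 0.05, and for history 7 of 8 (median -0.06) with 1. Their sum was 2298 to 2457 CPM in HH, 2226 to 2275 in HT, 2216 to 2398 in TH and 2097 to 2209 in TT. Of 7 tested inhibitory neuron genes, 5 lay below 0 for the second TTX (median -0.05) and 2 were lower at that p, and of 7 tested excitatory neuron genes 4 lay below 0 (median -0.01) with 0 at that p. For history 5 of the 7 inhibitory genes lay below 0 (median -0.17) with 0 lower at that p, and 5 of the 7 excitatory genes (median -0.04) with 2. The inhibitory sum was 769 to 1005 CPM in HH, 572 to 626 in HT, 646 to 757 in TH and 515 to 627 in TT, and the excitatory sum 1129 to 1252, 1181 to 1232, 1027 to 1151 and 934 to 1138. Gad1 and Gad2 held most of the inhibitory sum, with means of 389 and 381 CPM in HH and 231 and 250 in HT. From HH to HT, Slc32a1 (49.7 to 50.2), Dlx1 (16.1 to 19.0) and Dlx5 (8.95 to 9.80) did not fall. Lhx6 (33.7 to 32.4) and Dlx2 (8.42 to 7.05) were lower. The part of cell makeup in the lower release gene levels was not tested.

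**Figure D4:**
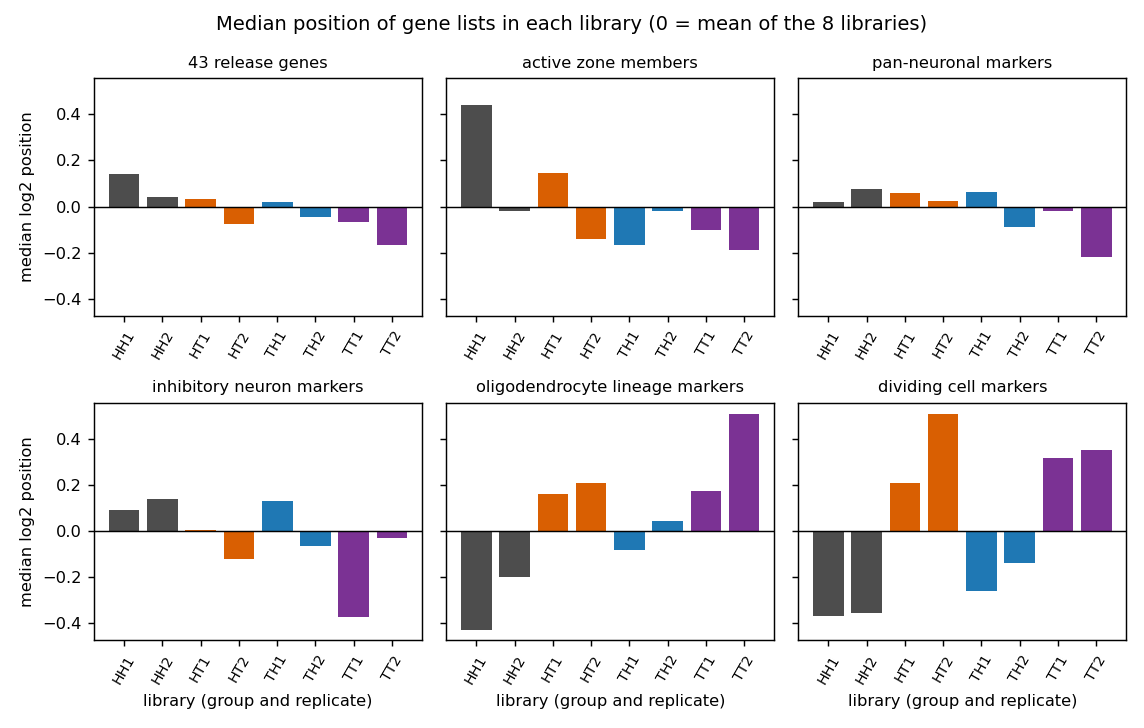
Median position of 6 gene lists in each library, in log2 CPM relative to each gene's mean over the 8 libraries, with bars coloured by group. The 43 release genes run from 0.14 in HH replicate 1 to -0.17 in TT replicate 2, while the oligodendrocyte lineage genes run from -0.43 to 0.51 in the same libraries.

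Typical calcium sensors start fusion when calcium binds them. Syt4, an atypical synaptotagmin found on dense-core vesicles and also in dendrites, stood at 91.6 and 75.4 CPM in HH, 55.6 and 58.1 in HT, 68.0 and 53.4 in TH, and 54.6 and 44.8 in TT (replicates 1 and 2). Both HH libraries lay above all 6 others, and TT replicate 2 was the lowest. Its log2 change was -0.42 ± 0.12 for the second TTX (edgeR adjusted p = 0.345) and -0.33 ± 0.12 for history (adjusted p = 0.814), and neither passed. Without HH replicate 1 they were -0.35 ± 0.12 and -0.26 ± 0.12.

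Syt1, the fast calcium sensor of release in forebrain neurons, stood at 3216 and 2098 CPM in HH, 2259 and 1998 in HT, 1785 and 2253 in TH, and 2306 and 1746 in TT. HH replicate 1 was far above the rest, and the other 7 libraries overlapped across groups. The log2 change was -0.16 ± 0.16 for the second TTX and -0.23 ± 0.16 for history, and without HH replicate 1 these were 0.01 ± 0.15 and -0.07 ± 0.15. Doc2a, a high-affinity calcium sensor of spontaneous and asynchronous release, stood at 3.70 and 6.26 CPM in HH, 3.36 and 5.90 in HT, 7.46 and 5.67 in TH, and 3.99 and 2.99 in TT, on 12 to 28 counts. The TT libraries lay below both TH libraries (log2 change -0.90 ± 0.39, unadjusted p = 0.0402, edgeR adjusted p = 1.00), while HT and HH overlapped. Its relative Doc2b was lower in TT than in TH too, by a log2 change of -0.35 ± 0.14. Syt7, a slow sensor of asynchronous release, ranged from 112 to 158 CPM and Syt2, the fast sensor of hindbrain synapses, from 1.38 to 3.39 CPM on 5 to 17 counts. Syt2 was higher in TT than in TH by a log2 value of 1.01 ± 0.49, which did not pass. Over the 6 sensors, 5 lay below 0 for the second TTX (median -0.16) and 6 for history (median -0.18).

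SNARE proteins drive fusion, and their regulators clamp, prime and recycle them. Snap25, a SNARE of the plasma membrane, stood at 761 and 417 CPM in HH, 463 and 331 in HT, 379.8 and 403 in TH, and 395 and 319.9 in TT. HH replicate 1 was 1.82 times HH replicate 2, and replicate 2 lay within the range of the other groups. The log2 change was -0.35 ± 0.19 for the second TTX and -0.37 ± 0.19 for history (edgeR adjusted p = 0.774 and 0.814), and -0.10 ± 0.13 and -0.12 ± 0.13 without HH replicate 1. Its partner syntaxin, Stx1a, stood at 50.0 and 63.1 CPM in HH, 72.7 and 50.8 in HT, 60.2 and 48.4 in TH, and 52.1 and 44.6 in TT. The vesicle SNARE Vamp2 stood at 313 and 383 CPM in HH, 295 and 335 in HT, 383 and 275 in TH, and 307 and 271 in TT. Groups overlapped for both genes, and the replicates of TH differed for Vamp2 by more than any group means did.

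Cplx1, a complexin that clamps and then assists the assembled SNAREs, stood at 123 and 114 CPM in HH, 116 and 98.3 in HT, 143 and 104 in TH, and 96.7 and 102 in TT. Both TT libraries lay below both TH libraries, and HT overlapped HH. Its log2 change for the second TTX was -0.22 ± 0.11 (edgeR adjusted p = 0.751), the smallest p of the class. The other 4 genes were the complexin Cplx2 (84.5 to 112 CPM), the vesicle SNARE Vamp1 (21.0 to 29.0 CPM), and Nsf (337 to 456 CPM) and Napb (63.6 to 79.4 CPM), the ATPase and adaptor that take spent SNARE complexes apart. Over the class of 8, 5 lay below 0 for the second TTX (median -0.09) and 8 for history (median -0.08), with 0 at an unadjusted p under 0.05 in either.

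Active zone genes build the release site. They differed most between the HH libraries: 10 of 13 were higher in replicate 1, with a median ratio of 1.43, and HH replicate 1 was the highest library for 8. Unc13a, the main priming factor, stood at 132 and 89.2 CPM in HH, 114 and 87.6 in HT, 80.9 and 70.8 in TH, and 80.0 and 70.3 in TT. All 4 libraries with earlier TTX lay below all 4 without it, which held for 1 of the 43 genes, against 1.17% of all genes tested lower and 1.73% higher. The log2 change for history was -0.49 ± 0.14 (edgeR adjusted p = 0.814) with all libraries and -0.34 ± 0.12 without HH replicate 1. With HH replicate 1 and HT replicate 1 both left out it was -0.23, and its change for the second TTX was -0.07 ± 0.14. The RE1 left part in the promoter printed for Unc13a says nothing on whether REST was bound.

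Unc13c, a priming factor best known from the cerebellum, stood at 29.9 and 30.5 CPM in HH, 25.1 and 23.6 in HT, 22.9 and 35.6 in TH, and 22.2 and 20.1 in TT. Each pair with the second TTX lay below the pair with the same history and vehicle, by log2 changes of -0.31 ± 0.21 and -0.49 ± 0.21, and TH replicate 1 lay below both HT libraries. Averaged, the change was -0.40 ± 0.15 (edgeR adjusted p = 0.613), and -0.41 ± 0.17 without HH replicate 1. Ppfia2, liprin-α2, an organizer of the scaffold, stood at 1547 and 893 CPM in HH, 984 and 731 in HT, 750.3 and 879 in TH, and 811 and 741 in TT. HH replicate 2 lay inside the HT range, and the second TTX change of -0.29 ± 0.17 became -0.07 ± 0.13 without HH replicate 1.

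Rims1, which links calcium channels, Rab3 and Unc13, stood at 1317 and 747 CPM in HH, 977 and 703 in HT, 654 and 790.3 in TH, and 722 and 692 in TT. Replicate 1 of HH and of HT stood above the 6 other libraries, which overlapped. Its history change was -0.38 ± 0.18 (edgeR adjusted p = 0.814), and -0.15 ± 0.13 without HH replicate 1. Bsn, bassoon, a giant scaffold protein, stood at 319 and 312 CPM in HH, 348 and 307 in HT, 320.4 and 273 in TH, and 300.0 and 259.5 in TT. The HH replicates were close for Bsn, TT replicate 2 was its lowest library, and its history change was -0.16 ± 0.10.

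The other 8 active zone genes had these ranges over the 8 libraries: Unc13b 88.1 to 142 CPM, Rims2 820.2 to 1401, Rims3 14.2 to 22.5, Rimbp2 392 to 489, Pclo 429 to 759, Erc1 299 to 458, Erc2 830.4 to 1362 and Ppfia3 75.7 to 97.0. HH replicate 1 was the highest library for Unc13b, Erc1, Erc2, Pclo and Rims2. In HT against HH, 10 of the 13 active zone genes lay below 0 (median -0.22) with all libraries, and 4 of 13 (median 0.07) without HH replicate 1. For the second TTX 12 of 13 lay below 0 (median -0.11), and 6 of 13 (median 0.00) without it. For history the count was 12 of 13 both with (median -0.16) and without it (median -0.09). With HH replicate 1 and HT replicate 1 both left out, 12 of 13 lay below 0 in HT against HH (median -0.09). The same fit gave 12 of 13 for the second TTX (median -0.06) and 8 of 13 for history (median -0.02). The rapid activity genes split the HH and HT pairs the same way as the active zone genes and the TH pair the other way. Their median log2 position was 1.68 and -0.22 in HH, 0.25 and -0.23 in HT, -0.05 and -0.44 in TH, and -0.40 and -0.53 in TT (replicates 1 and 2). For the active zone genes it was 0.44 and -0.02 in HH, 0.14 and -0.14 in HT, -0.17 and -0.02 in TH, and -0.10 and -0.19 in TT. The part of firing-linked genes in the class's change was not tested.

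Vesicle proteins sit in or on the vesicle membrane. Synpr, synaptoporin, a relative of synaptophysin known from hippocampal mossy fibre terminals, stood at 424 and 359 CPM in HH, 233 and 253 in HT, 325 and 381 in TH, and 245 and 351 in TT. Both HT libraries lay below every library without the second TTX, whereas TT replicate 2 lay between the TH libraries. The log2 change was -0.69 ± 0.18 in HT against HH (edgeR adjusted p = 0.588), -0.24 ± 0.18 in TT against TH and -0.47 ± 0.13 averaged (adjusted p = 0.343). Without HH replicate 1 the averaged change was -0.41 ± 0.13. The promoter printed for Synpr held no CRE, AP-1 or RE1 left part letters.

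Sv2c, a vesicle glycoprotein and botulinum toxin receptor, stood at 288 and 206 CPM in HH, 194 and 177 in HT, 205 and 196 in TH, and 191 and 179.9 in TT. All 4 libraries with the second TTX lay below all 4 without it, as they did for Syn2, at 545 to 608 CPM against 609 to 691. For both genes the nearest libraries were almost level, for Sv2c at 194 CPM (HT replicate 1) and 196 (TH replicate 2). Such a separation held for 2 of the 43 genes, against 1.64% of all genes tested lower and 2.69% higher. The Sv2c change for the second TTX was -0.26 ± 0.11 (edgeR adjusted p = 0.668), and -0.14 ± 0.09 without HH replicate 1, and for Syn2 it was -0.19 ± 0.10 (adjusted p = 0.763). Sv2b stood at 289.9 and 239 CPM in HH, 287 and 232 in HT, 209 and 203 in TH, and 250.4 and 173 in TT. HT overlapped HH for Sv2b, TH lay below both, and TT overlapped all groups, for a history change of -0.33 ± 0.13 (adjusted p = 0.814).

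Syn1, synapsin I, which tethers the reserve pool, stood at 226 and 239 CPM in HH, 217 and 208 in HT, 213 and 196 in TH, and 225 and 196 in TT. Its 8 levels were close together, and both HH libraries were above all others, TT replicate 1 nearly reaching them. The history change was -0.10 ± 0.09. Rab3c, a vesicle GTPase, ranged from 150.3 to 249 CPM in 7 libraries and stood at 372 in HH replicate 1. The remaining genes were Syn3 (313 to 545 CPM), synaptophysin Syp (62.7 to 91.4), Sv2a, the target of the drug levetiracetam (105 to 145), and Rab3a (66.1 to 101). Of the 10 vesicle genes, 8 lay below 0 for the second TTX (median -0.16) and 8 for history (median -0.10), and without HH replicate 1 these counts were again 8 and 8 (medians -0.15 and -0.05).

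Vesicular glutamate transporters fill the vesicle. Slc17a6 (VGLUT2) stood at 11.7 and 9.13 CPM in HH, 7.76 and 9.26 in HT, 12.4 and 10.9 in TH, and 7.47 and 6.97 in TT, on 30 to 54 counts. The TT libraries were the lowest and lay below both TH libraries (log2 change -0.69 ± 0.25, edgeR adjusted p = 1.00), while HT and HH overlapped. Averaged over history the change was -0.49 ± 0.18 (adjusted p = 0.594), and -0.40 ± 0.20 without HH replicate 1. Slc17a7 (VGLUT1), the main transporter of cortical and hippocampal excitatory neurons, stood at 79.9 and 117 CPM in HH, 110.0 and 97.7 in HT, 119 and 88.8 in TH, and 105 and 82.7 in TT. Its HH libraries were the lowest and the second highest of the 8, and all groups overlapped. The change was -0.04 ± 0.14 for both the second TTX and history, and its direction turned when single libraries were left out.

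Recycling genes retrieve the vesicle membrane. Amph, amphiphysin, which brings dynamin to the necks of budding vesicles, stood at 318 and 278 CPM in HH, 239 and 225 in HT, 249 and 255 in TH, and 256 and 206 in TT. Both HH libraries lay above the 6 others, and the TT pair spanned HT and TH. The log2 change for the second TTX was -0.24 ± 0.10 (edgeR adjusted p = 0.655), and -0.20 ± 0.10 without HH replicate 1. Synj1, synaptojanin, which strips clathrin coats by way of phosphoinositides, stood at 235 and 230.3 CPM in HH, 207 and 204 in HT, 214 and 210.1 in TH, and 216 and 208 in TT. The HH pair was again above all others, by little, and the change was -0.09 ± 0.08 for the second TTX.

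Sh3gl2, endophilin A1, stood at 625 and 499.7 CPM in HH, 519 and 466 in HT, 423 and 483 in TH, and 492 and 446 in TT. Both TH libraries lay below both HH libraries, and the history change was -0.19 ± 0.11 (edgeR adjusted p = 0.814). Dnm1, dynamin 1, the GTPase that cuts vesicles free, stood at 223 and 336 CPM in HH, 253 and 309.9 in HT, 314 and 260.0 in TH, and 300.2 and 253 in TT. The HH libraries were its lowest and its highest, so that its changes of -0.02 ± 0.14 for the second TTX and 0.01 ± 0.14 for history lie well inside the spread within HH. Over the class, 4 of 4 lay below 0 for the second TTX (median -0.08) and 3 of 4 for history (median -0.08).

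**Figure D5:**
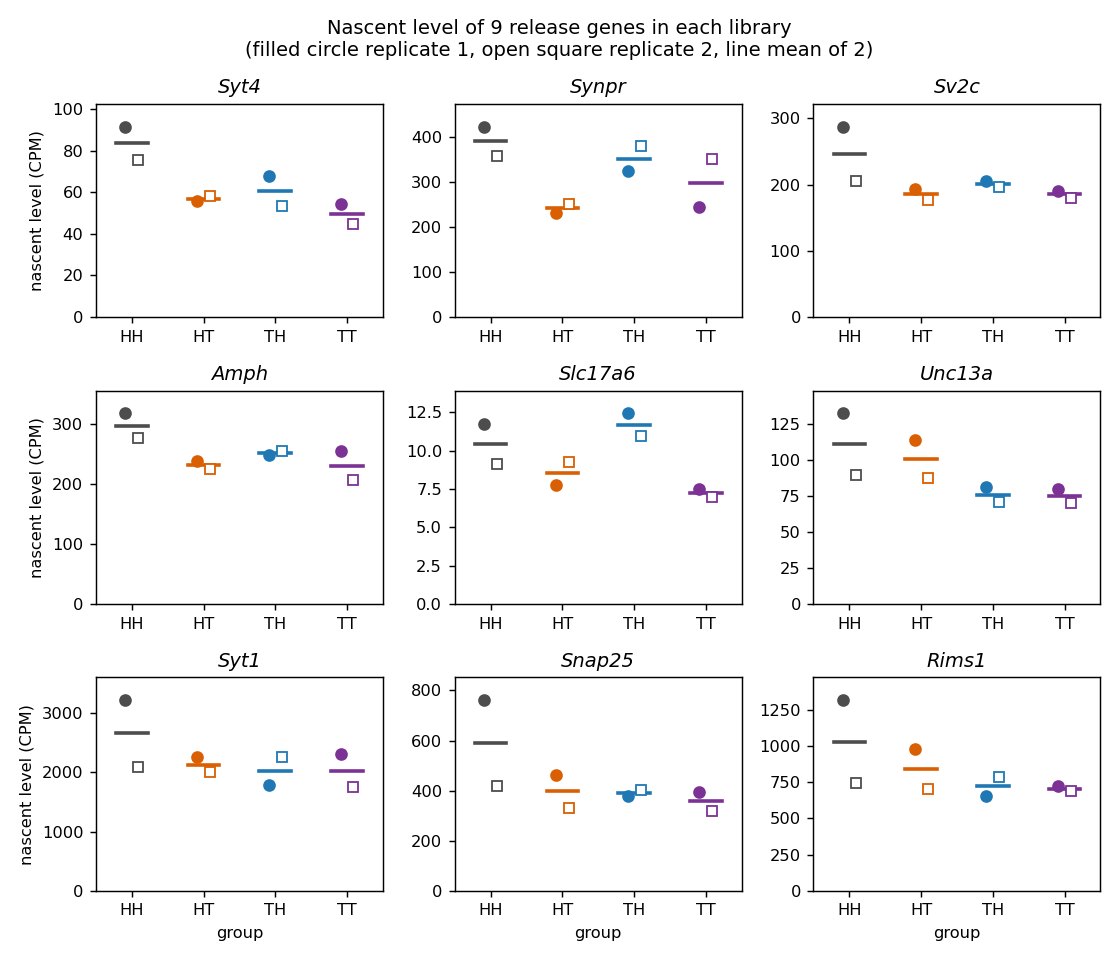
Level in CPM of 9 release genes in each library, by group, with circles for replicate 1, squares for replicate 2 and a line at the mean of the 2. In the top row both HT libraries of Syt4, Synpr and Sv2c lie below both HH libraries, and in the bottom row Syt1, Snap25 and Rims1 are highest in HH replicate 1 alone.

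Other genes of the same machinery that are not among the 43 were read as a comparison. Of 62 listed, 57 were tested and Rab3gap1, Cadps2, Tspoap1, Itsn2 and Rimbp3 were not analysed here. For the second TTX 42 of 57 lay below 0 (median -0.08), against 50.3% of all genes tested. For history it was 38 of 57 (median -0.06), against 50.0%. At an unadjusted p under 0.05, Stxbp5l, a tomosyn that binds syntaxin (-0.31 ± 0.11), Snap91, a clathrin adaptor (-0.24 ± 0.09), and Syt6 (-0.46 ± 0.17) were lower and the liprin-β gene Ppfibp1 (0.25 ± 0.10) higher for the second TTX. For history Syt5 (-0.30 ± 0.13) was lower and Bin1, an amphiphysin relative (0.22 ± 0.09), higher. None passed the adjusted threshold in edgeR. Of the 57, 5.26% were thus lower and 1.75% higher for the second TTX, against 2.59% and 4.35% of all genes tested. For history it was 1.75% each way, below the 2.74% and 3.01% of all genes tested. Below 0 in both TTX comparisons were 33 of the 57 (57.9%), near the 53.5% of the 43, against 28.3% of all genes tested. The 57 too were chosen with earlier results of these data known, so they are no independent check.

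Some member counts may hold reads of neighbours, since the sources used here do not give the counting's strand setting. By RefSeq's gene positions, 22 of the 43 genes overlap another gene, and 6 overlap one that is also in the count table. They are Doc2a with Ino80e, Cplx2 with Lnc012, Syn1 with Araf and Timp1, Syn2 with Timp4, Syn3 with Fbxo7 and Timp3, and Rab3a with Mpv17l2. Timp3, an inhibitor of matrix proteases, overlaps Syn3 and stood at 84.2 to 118 CPM, with a log2 change of 0.26 ± 0.09 for the second TTX where Syn3 had 0.01 ± 0.20. The values of these 6 genes are uncertain to that extent.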

How the data were processed

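Nascent RNA from 8 BrU-seq libraries, 2 per group, was analysed. The authors deposited read counts per gene symbol, not normalized. The tools named in the submitters' processing notes are FastQC, Bowtie2, TopHat2 and featureCounts, with rn6 as the build; for their versions, the annotation, the strand setting and introns, nothing is given in the sources used here. Introns make up much of nascent RNA, so that setting can shift the counts of long genes. Each of 8 columns was assigned by its number, which also begins 1 sample's description; 2 columns fit no sample and were left out.

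Tests were run with edgeR 4.0.16 (R 4.3.3) on TMM-scaled counts of the 11372 of 16871 genes that passed its expression filter. The fit had a mean for each of the 4 groups, leaving 4 residual degrees of freedom, and used robust quasi-likelihood F tests, adjusted by Benjamini-Hochberg over all genes tested at 0.05. The SE was obtained by dividing the size of the log2 change by the root of F, and rests on the spread within all groups (common biological coefficient of variation 0.128). Replicates correlated at 0.974 to 0.987 (log2 CPM, prior count 2, across genes). The labels do not say whether they were separate cultures, so that the p-values reflect only the spread among these libraries, which may be technical. The step was tested on simulated data. Alternatives were DESeq2 1.42.0, upper-quartile scaling, limma-voom 3.58.1, no filter, a replicate block, only the groups compared, and leaving libraries out. No batch or date is labelled.

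The 43 members, their classes, the further genes and the marker lists were chosen with earlier results of these data known. Values in every library are given for Syt1, Syn1, Snap25, Stx1a, Vamp2, Unc13a, Rims1, Bsn, Slc17a6, Slc17a7 and Dnm1, and in each class for the 2 genes of smallest p for the second TTX and the 1 for history; Syn2, Rab3c, Syt2, Doc2b, Syt7 and Rab3a were singled out after their values were seen. Of the further genes, up to 3 of smallest p per comparison are named, and Ppfibp1 was added after its values were seen. The RefSeq gene table and promoters are of build GRCr8, not rn6, so gene positions served only for neighbours and sequence, and all 43 symbols matched the gene table. Python 3.11.15 with matplotlib 3.10.9 drew the figures.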

Additional observations from a re-analysis of the deposited data

Results flagged for a closer look

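Synj1, the phosphatase that helps uncoat retrieved vesicles, differed in direction with TTX history between the second treatments. After vehicle both TH libraries (214 and 210.1 CPM) lay below both HH libraries (235 and 230.3), and after TTX both TT libraries (216 and 208) lay above both HT libraries (207 and 204). The log2 change was -0.13 ± 0.11 in the first case and 0.05 ± 0.11 in the second. The difference between them was 0.18 ± 0.16 (n = 2 libraries per group) and did not pass edgeR's test (adjusted p = 1.00). Synj1 was singled out for this pattern. With 2 libraries per group, separation without overlap was common over all genes tested. In TH against HH 13.4% of them were lower in this way, and in TT against HT 2069 of 11372 were higher. The share with both is not given, so the pattern describes these levels and is not a result about Synj1.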

How the results depend on the processing

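No release gene passed the adjusted threshold in any comparison under DESeq2, upper-quartile scaling, limma-voom, no filter on low counts, the fits of only the groups compared, or with HH replicate 1 and HT replicate 1 both left out. With 1 library left out at a time the count ran from 0 to 1 in TH against HH and for history, the 1 being Snap25 and Unc13a without HH replicate 2, and was 0 elsewhere. With the replicate block the count was 0 in all 7 comparisons; the correlation of deviations between libraries of the same number was 0.447 for HH and HT and -0.07 to 0.09 for the other pairs of groups, so the numbers were not taken to pair the samples.

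The median log2 change of the 43 genes ran over single libraries left out from -0.195 to -0.0868 in HT against HH, -0.182 to -0.0108 in TT against TH, -0.210 to -0.0709 in TH against HH, -0.167 to -0.00859 in TT against HT, and -0.0241 to 0.135 in the interaction. With HH replicate 1 and HT replicate 1 both left out it was -0.129 in HT against HH and -0.0989 for the second TTX. In that fit it was -0.0132 in TT against HT and -0.0509 for history. For Slc17a7 the change ran from -0.16 to 0.11 for the second TTX and from -0.17 to 0.11 for history, and for Dnm1 from -0.16 to 0.14 for the second TTX, with their sign turning. Snap25 for history was 0.00885 without HH replicate 1 and HT replicate 1. The cause was not tested. For the second TTX averaged over history, DESeq2 called 13 genes of the whole table and the unfiltered edgeR fit 16, against 0 with the filter, none of them among the 43. The median SE of a member's change was 0.18 in HT against HH, close to its median change, and counts as low as 5 limit Syt2.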
